A study of Mus musculus with 14 samples.

Results

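The genes described here are 8 mouse genes used as readouts of neural identity, Sox1, Sox4, Sox11, Pax6, Nes, Ncam1, Tubb3 and Map2. They were chosen by symbol, as the rows of the deposited count table that carry these names. They are 8 of the 24015 genes in that table, and all 8 were among the 16247 genes with enough counts to be tested. The study sequenced RNA from 14 libraries of mouse pluripotent stem cells, 2 in each of 7 groups, which its design text calls biological duplicates. It asked what happens to epiblast stem cells when the histone methyltransferase Mll1 is inhibited with the compound MM401.

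Embryonic stem cells (ESC, genotype CD1/JF1, derived from the blastocyst) were grown on feeder cells with the cytokine LIF in GMEM with serum replacement (KSR). Epiblast stem cells (EpiSC, CD1/JF1, also labelled as derived from the blastocyst) were grown in KO DMEM with KSR and the growth factor bFGF. EpiSC were moved to LIF/KSR/KO-DMEM with MM401 at 100 µM for 3 days (MM401 day 3) or for 6 days, to passage 2 (MM401 P2), both CD1/JF1. Reverted lines (rES, CD1-deltaTSIX/JF1) were kept in LIF/KSR/KO-DMEM with 25 µM MM401 and sampled at passage 6 (rES P6) and passage 30 (rES P30), and at passage 30 without MM401. MM401 arrived together with LIF and the loss of bFGF, so the compound and the medium cannot be told apart in any comparison with EpiSC. The rES lines differ in genotype from every other group, so genotype and culture history cannot be told apart there either. The second MM401 P2 library is titled P2b and the first P2. The number of lines or clones behind a group is unknown from the sources used here, and a p-value speaks for the spread between the sequenced libraries alone.

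Sox1 is a SoxB1 transcription factor and an early marker of neuroectoderm. Sox4 and Sox11 are SoxC factors that act as neural progenitors turn into neurons, and Pax6 is a paired-box factor of the forebrain, eye and spinal cord. Nestin, encoded by Nes, is the intermediate filament of neural stem cells, and Ncam1 encodes the neural cell adhesion molecule. Tubb3 encodes the neuron-enriched class III beta-tubulin and Map2 a dendritic microtubule-associated protein. Primed pluripotent cells such as EpiSC stand closer to lineage commitment than ESC, and neural genes are among those used to tell the states apart.

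Sox1, Sox11 and Nes fell furthest below EpiSC, and the 250 bases before their start sites are shown to compare the DNA ahead of the 3 genes. The sequences are from RefSeq on GRCm38.p6, not on mm9, the build named for the deposited data, and they are written 5′ to 3′ on the strand of the gene with every CG dinucleotide in capitals. Sox1 lies on the plus strand at chr8:12395269-12395518, Sox11 on the minus strand at chr12:27342719-27342968, and Nes on the plus strand at chr3:87970843-87971092.
Sox1: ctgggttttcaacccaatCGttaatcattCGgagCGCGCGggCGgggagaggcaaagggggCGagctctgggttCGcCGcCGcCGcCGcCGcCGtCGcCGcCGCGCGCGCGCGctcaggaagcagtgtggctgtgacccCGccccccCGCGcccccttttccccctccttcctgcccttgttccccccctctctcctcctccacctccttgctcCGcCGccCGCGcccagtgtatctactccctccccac
Sox11: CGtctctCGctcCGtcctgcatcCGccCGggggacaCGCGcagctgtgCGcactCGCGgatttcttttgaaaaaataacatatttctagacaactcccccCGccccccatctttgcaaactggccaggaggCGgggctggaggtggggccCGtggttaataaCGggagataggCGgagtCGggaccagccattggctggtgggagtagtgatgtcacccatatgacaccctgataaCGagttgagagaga
Nes: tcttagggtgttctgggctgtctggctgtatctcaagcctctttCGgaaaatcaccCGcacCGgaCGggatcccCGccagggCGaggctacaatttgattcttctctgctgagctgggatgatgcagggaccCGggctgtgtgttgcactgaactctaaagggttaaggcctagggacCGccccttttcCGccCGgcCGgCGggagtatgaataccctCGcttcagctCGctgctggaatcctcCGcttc

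The Sox1 stretch held 29 CG dinucleotides, a number reached by 6.78% of the 32851 promoters in the table, whose median was 6. Sox11 held 17, reached by 23.5% of promoters, and Nes held 15, reached by 27.3%. Of the other members, Map2 held 34, Tubb3 21, Sox4 11, and Pax6 15 at each of 2 starts, so the number of CG did not separate the 3 genes from the rest. On either strand, GGGCGG, which itself contains a CG, occurred 3 times ahead of Sox1 and 2 times each ahead of Sox11 and Nes. Map2 had it 5 times and Tubb3 2 times, while Sox4 and both Pax6 starts lacked it, and 32.7% of all promoters held it. It therefore did not separate the 3 genes from the rest either. TATAAA was found ahead of none of the 7 members with an entry, against 12.4% of all promoters. ACAAAG, a core motif of Sox proteins, was found ahead of the second Pax6 start alone among the members, against 16.5% of all promoters. Ncam1 had no entry.

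Libraries held 20831588 to 23677089 counts, except those of MM401 day 3 (113221270 and 116086115) and MM401 P2 (74952496 and 80383376). Levels are CPM, a gene's counts scaled to library size with TMM factors. A gene was called different at an adjusted p under 0.05 in edgeR's quasi-likelihood test, and higher, lower, rose and fell refer to called genes. The label EpiSC was checked against 12 markers of naive and 10 of primed pluripotency. Summed naive markers were 876 to 906 CPM in EpiSC, 4415 to 4450 in ESC, 5135 to 5162 at MM401 day 3, 3370 to 3493 at P2 and 5945 to 6739 in the rES libraries. Summed primed markers were 1621 to 1631 CPM in EpiSC, 827 to 831 in ESC and 213 to 352 elsewhere. Gene by gene the primed list did not follow the label, as 5 of its 10 genes were higher in ESC than in EpiSC, 4 were lower and 1 was not called (median 0.37). The shares of all tested genes called there were 37.0% higher and 37.5% lower. Fgf5 was 7.61 CPM in EpiSC and 21.1 in ESC, and Otx2 31.6 and 110.8. The summed level was carried by Grb10 (718.8 CPM in EpiSC) and Dnmt3b (566.6 CPM). Summed markers of feeder fibroblasts (20 genes, none at 0 counts in any library) ran from 6336 to 6912 CPM in EpiSC, ESC and MM401 day 3, from 18985 to 19369 at MM401 P2, from 4301 to 4341 in rES P6 and from 1802 to 1986 in both passage 30 groups. Similar sums hid a split list. Against EpiSC, 10 feeder genes were higher and 7 lower in ESC (37.0% and 37.5% of all tested genes), and 10 and 7 at MM401 day 3 (38.7% and 37.9%). In bulk RNA, fewer cells that express a gene and less RNA per cell cannot be told apart.

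Sox1, Sox11, Nes, Sox4 and Map2 were lower than in EpiSC in both ESC and MM401 day 3, while Tubb3 and Pax6 were higher in both. Of the 8 members, 6 were lower in ESC (37.5% of all tested genes were called lower) and 2 higher (37.0%). At MM401 day 3, 5 were lower (37.9% of tested genes) and 3 higher (38.7%). At MM401 P2, 5 were lower (33.8%) and 2 higher (42.1%). Against EpiSC, 7 members were lower in each rES group, against 35.1% of tested genes called lower in rES P6, 38.3% in rES P30 and 38.0% in rES P30 without MM401. No member was higher in an rES group than in EpiSC, against 38.7%, 38.0% and 38.5% of tested genes called higher. The count of lower members stood above the background share in each of these comparisons. The members were chosen with earlier results of these data known, so this excess is a description and not a test. The median member was 1.20 log2 units below EpiSC in ESC on the fitted scale (-1.20, against 0.00 for all tested genes), -1.15 at MM401 day 3 (all genes 0.00), -0.41 at MM401 P2 (all genes 0.08) and -1.65 in rES P30 (all genes -0.02). All of these comparisons share the same 2 EpiSC libraries.

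**Figure D1:**
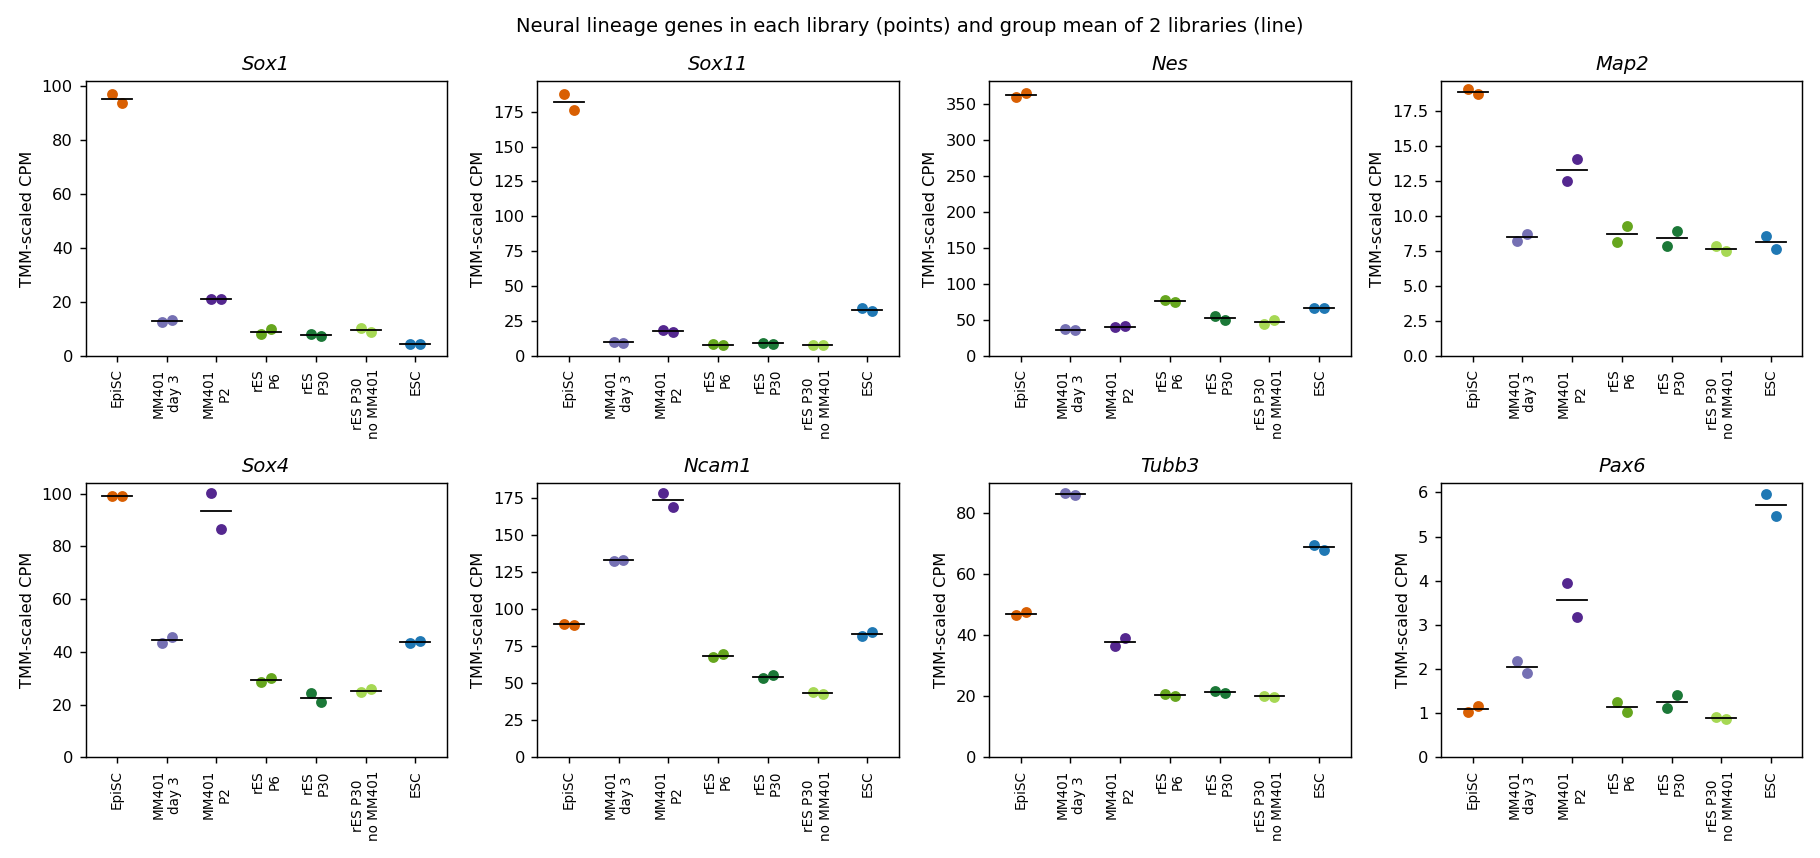
Level of each member (y axis, TMM-scaled CPM from 0) in the 14 libraries by group (x axis), with 2 points per group and a line at their mean. The EpiSC points of Sox1, Sox11, Nes and Map2 lie above those of every other group, whereas Ncam1 is highest at MM401 P2, Tubb3 at MM401 day 3 and Pax6 in ESC.

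Sox1 had the widest gap between EpiSC and ESC of the 8 genes. It stood at 97.2 and 93.5 CPM in the EpiSC libraries and at 4.29 and 4.45 CPM in ESC. Under treatment it was 12.5 and 13.3 CPM at day 3 and 21.15 and 20.96 CPM at P2. In the rES lines it was 7.95 and 9.92 CPM at P6, 7.93 and 7.30 CPM at P30, and 10.2 and 8.62 CPM at P30 without MM401. No library of another group came near the EpiSC pair, and no library of another group was as low as the ESC pair. Sox1 fell 7.38-fold from EpiSC to day 3 (log2 difference -2.88 ± 0.07 SE, n = 2 per group, adjusted p = 3.05e-31) and was 12.5-fold lower in rES P30 (-3.64 ± 0.09, adjusted p = 3.05e-31). ESC was 21.8-fold below EpiSC (-4.45 ± 0.10, adjusted p = 1.71e-32). Sox1 then rose 1.63-fold from day 3 to P2 (0.70 ± 0.07, adjusted p = 1.64e-11), and it remained above ESC in rES P30 by 1.75-fold (0.80 ± 0.14, adjusted p = 2.92e-06). From the top, the order of groups was EpiSC, P2, day 3, rES P30 without MM401, rES P6, rES P30 and ESC, and the 3 rES groups were not called different from one another, for instance rES P30 without MM401 and rES P6 (36.6% of tested genes called in that pair).

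Sox11 showed a deeper loss in the treated and reverted cells than in ESC. Its 2 libraries read 187.9 and 176.0 CPM in EpiSC and 34.1 and 32.0 CPM in ESC. At day 3 they read 10.2 and 8.86 CPM, and at P2 18.6 and 16.7 CPM. The rES libraries were between 7.71 and 9.34 CPM. Every treated or reverted library was therefore below both ESC libraries. Sox11 was 19.1-fold lower at day 3 than in EpiSC (-4.26 ± 0.07, adjusted p = 3.57e-38), 20.1-fold lower in rES P30 (-4.33 ± 0.08, adjusted p = 1.16e-35) and 5.50-fold lower in ESC (-2.46 ± 0.07, adjusted p = 7.71e-30). Against ESC it was 3.48-fold lower at day 3 (-1.80 ± 0.07, adjusted p = 1.78e-23) and 3.65-fold lower in rES P30 (-1.87 ± 0.09, adjusted p = 9.62e-21). So Sox1 stayed above its ESC level in rES P30 while Sox11 lay below it. Neighbouring groups in the order day 3, rES P30, rES P6 and rES P30 without MM401 were not called different, the first of these pairs against 70.6% of tested genes called. Groups further apart in that order did differ from day 3. Sox11 was lower than at day 3 in rES P6 (-0.27 ± 0.10, adjusted p = 0.0154) and in rES P30 without MM401 (-0.26 ± 0.10, adjusted p = 0.0168).

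Sox4, the other SoxC gene here, rose back towards the EpiSC level at passage 2, and whether the 2 groups were called different depended on the processing. It was 99.2 CPM in each EpiSC library, 43.5 and 45.7 CPM at day 3 and 100.2 and 86.5 CPM at P2. ESC read 43.5 and 44.3 CPM, and the rES libraries lay between 20.9 and 30.2 CPM. The P2 pair straddled the EpiSC pair, and the day 3 pair overlapped the ESC pair. Sox4 fell 2.23-fold by day 3 (-1.15 ± 0.06, adjusted p = 1.25e-20) and was 2.09-fold higher at P2 than at day 3 (1.07 ± 0.05, adjusted p = 5.51e-20). P2 and EpiSC were not called different (-0.09 ± 0.06, adjusted p = 0.152), but they were when libraries were scaled by total counts (-0.24, adjusted p = 0.000411) or without P2 replicate 1 (-0.20, adjusted p = 0.00264). In rES P30 Sox4 was 4.38-fold below EpiSC (-2.13 ± 0.07, adjusted p = 1.81e-26) and 1.94-fold below ESC (-0.95 ± 0.08, adjusted p = 6.11e-14). From day 3 to P2 the feeder sum also went up, to 18985 to 19369 CPM, and its part in the Sox4 level was not tested.

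Pax6 had the lowest level per kb of exon among the members and ran opposite to Sox1 between EpiSC and ESC. It read 1.02 and 1.16 CPM in EpiSC, from 25 and 28 counts, and 5.97 and 5.46 CPM in ESC. It was 2.18 and 1.92 CPM at day 3 and 3.96 and 3.19 CPM at P2, and 0.867 to 1.41 CPM in the rES libraries. The EpiSC values overlapped those of rES P6 and rES P30, and the ESC pair lay above all others. Both libraries of rES P30 without MM401 lay below the EpiSC pair, a difference that was not called (adjusted p = 0.441). Pax6 was 5.25-fold higher in ESC than in EpiSC (2.39 ± 0.24, adjusted p = 1.14e-11) and 3.28-fold higher at P2 (1.71 ± 0.23, adjusted p = 1.72e-08). The difference between rES P30 and EpiSC was 0.20 ± 0.30 and was not called (adjusted p = 0.547). At these counts, a change of that size was not detectable.

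Nes, the progenitor filament gene, had the highest level per kb of exon of the 8 in EpiSC and was lower in every other group. It stood at 359.9 and 365.6 CPM in EpiSC and at 65.8 and 67.0 CPM in ESC. Day 3 read 36.7 and 36.2 CPM and P2 39.7 and 40.9 CPM. The rES libraries read 76.9 and 75.4 CPM at P6, 54.8 and 49.9 CPM at P30, and 43.9 and 49.95 CPM at P30 without MM401. The 2 treated groups were thus the lowest, and rES P6 was the one group other than EpiSC to stand above ESC. Nes was 9.95-fold lower at day 3 than in EpiSC (-3.31 ± 0.05, adjusted p = 2.04e-39) and 5.46-fold lower in ESC (-2.45 ± 0.05, adjusted p = 3.53e-34). In rES P6 Nes was 1.89-fold higher than at P2 (0.92 ± 0.05, adjusted p = 2.08e-19). It was the one member higher in that comparison, while the other 7 were lower (35.5% of tested genes were called higher and 37.5% lower). All 20 feeder markers were also lower in rES P6 than at P2 (median -2.07), and their part in these members was not tested. The 2 groups also differ in genotype and in MM401 dose, which cannot be told apart. From rES P6 to P30 Nes fell 1.45-fold (-0.54 ± 0.05, adjusted p = 2.56e-10).

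Ncam1 moved the other way under treatment. It was 90.1 and 89.8 CPM in EpiSC, 133.0 and 133.4 CPM at day 3, and 178.8 and 169.5 CPM at P2. The rES libraries were 67.7 and 69.7 CPM at P6, 53.6 and 55.7 CPM at P30, and 44.5 and 43.2 CPM at P30 without MM401. ESC read 81.7 and 85.0 CPM. No 2 groups overlapped, and each neighbouring pair in the order of levels was called different. Ncam1 rose 1.48-fold by day 3 (0.57 ± 0.04, adjusted p = 3.51e-15) and 1.94-fold by P2 (0.95 ± 0.04, adjusted p = 2.24e-22), and was 1.65-fold lower in rES P30 than in EpiSC (-0.72 ± 0.05, adjusted p = 1.67e-16). ESC was 1.08-fold lower than EpiSC (-0.11 ± 0.05, adjusted p = 0.0346), a call that was lost with no filter on low counts (adjusted p = 0.0914) and without EpiSC replicate 1 (0.105), EpiSC replicate 2 (0.0902) or ESC replicate 1 (0.247). Over the groups Ncam1 was highest where the feeder sum was highest, at P2, and lowest where it was lowest, at passage 30 without MM401, and the part of feeder cells in its level was not tested. Between EpiSC and day 3 the feeder sum moved from 6336 to 6406 CPM up to 6893 to 6912 CPM, with 10 of its 20 genes higher and 7 lower.

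Among the cytoskeletal members, Tubb3 peaked at day 3 and Map2 in EpiSC. Tubb3 read 46.7 and 47.6 CPM in EpiSC, 86.7 and 85.9 CPM at day 3, 36.6 and 39.1 CPM at P2, and 69.6 and 68.1 CPM in ESC. The rES libraries lay between 19.8 and 21.7 CPM. The day 3 pair was above the ESC pair and every rES library was below all the rest. Tubb3 rose 1.83-fold by day 3 (0.87 ± 0.05, adjusted p = 2.52e-18), then fell 2.28-fold to P2 (-1.19 ± 0.05, adjusted p = 1.61e-23), the one member to fall in that step while the other 7 rose (33.3% and 37.5% of tested genes were called lower and higher). Of those 7, Nes rose least (0.14 ± 0.05, adjusted p = 0.00587), and its call was lost in a fit of the 4 libraries alone (0.0873). All 20 feeder markers also rose from day 3 to P2 (median 1.53), and their part in the rise of these members was not tested. Tubb3 was 3.21-fold lower in rES P30 than in ESC (-1.68 ± 0.06, adjusted p = 1.20e-24). Map2 read 19.1 and 18.7 CPM in EpiSC, 12.5 and 14.1 CPM at P2, 8.25 and 8.74 CPM at day 3, and 7.47 to 9.27 CPM in ESC and the rES libraries. Map2 was 2.33-fold lower in ESC than in EpiSC (-1.22 ± 0.11, adjusted p = 1.87e-12) and 2.23-fold lower at day 3 (-1.15 ± 0.10, adjusted p = 5.06e-14). Map2 was the one member with no call between ESC and any rES group, where its difference was 0.05 ± 0.13 for rES P30 (adjusted p = 0.748).

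**Figure D2:**
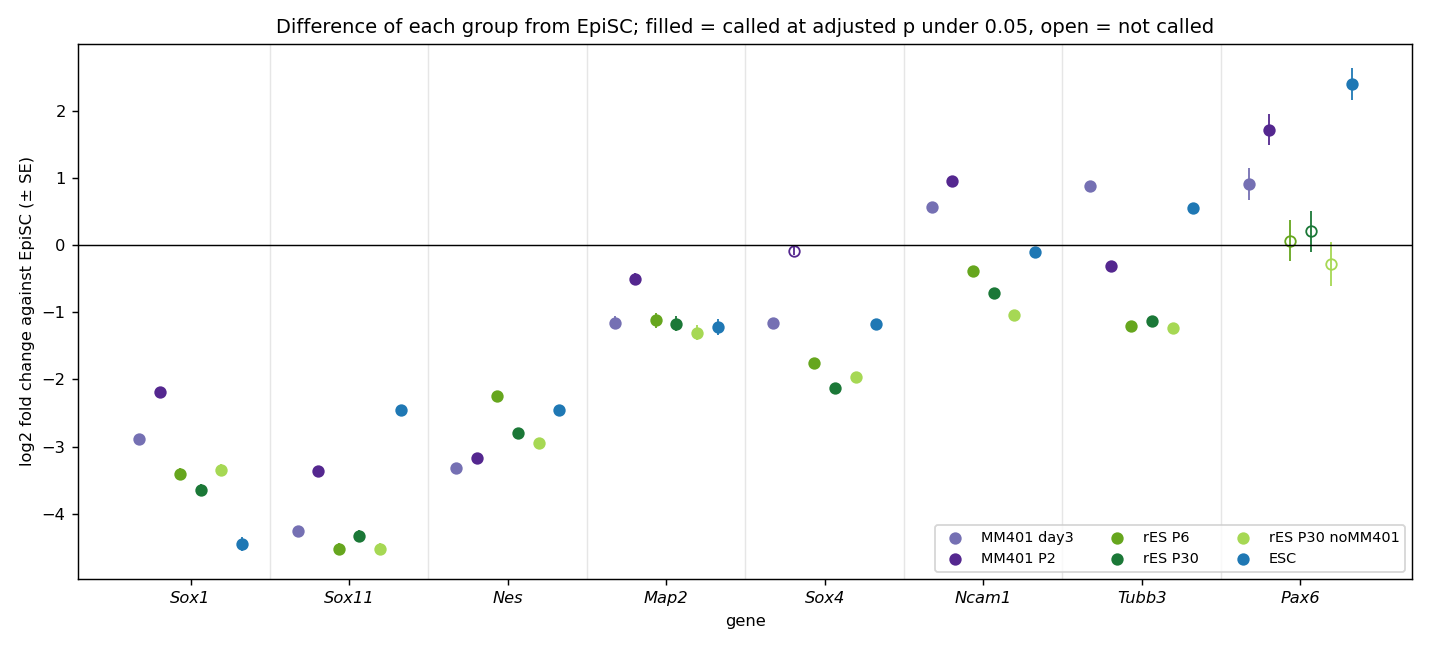
Log2 fold change from EpiSC (y axis) of each member (x axis) in the other 6 groups of 2 libraries, with the fitted standard error as bars, filled points called and open points not called. All points of Sox1, Sox11 and Nes lie at -2.18 or lower, whereas Ncam1, Tubb3 and Pax6 lie above 0 at MM401 day 3.

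The reverted cells and ESC differed in 7 of 8 members, near the share of all tested genes called in either direction, which was 71.1% for rES P30, 69.3% for rES P6 and 71.4% for rES P30 without MM401. Against ESC, 1 member was higher in rES P30, Sox1 (35.3% of tested genes were called higher), and 6 were lower (35.8%). In rES P6, 2 were higher, Sox1 and Nes (36.3%), and 5 lower (33.0%). Without MM401 at passage 30, Sox1 was higher (36.3%) and 6 were lower (35.0%). Between MM401 day 3 and ESC, Sox1, Ncam1 and Tubb3 were higher (35.6%), Sox11, Nes and Pax6 lower (35.6%), and Sox4 and Map2 were not called. Between MM401 P2 and ESC, Sox1, Sox4, Ncam1 and Map2 were higher (41.0%) and the other 4 lower (33.7%). The largest gap to ESC in rES P30 was that of Pax6, 4.56-fold lower (-2.19 ± 0.24, adjusted p = 1.28e-10), from levels near 1 CPM in the rES libraries.

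From rES P6 to P30, Sox4, Nes and Ncam1 fell and no member rose (14.4% and 11.3% of tested genes were called lower and higher, 25.6% in all). All 20 feeder markers fell in the same step (median -0.98), and the part of feeder cells in the 3 members was not tested. At passage 30, cells without MM401 had lower Ncam1 (-0.32 ± 0.05, adjusted p = 3.28e-05) and Nes (-0.16 ± 0.06, adjusted p = 0.0448) than cells with it, against 9.32% of tested genes called lower, and 10.4% called higher. The 2 called members of 8 are close to the 19.7% called in either direction, so the count says nothing particular about these genes. The Nes libraries of the 2 groups overlapped, and the Nes call was lost without replicate 1 of rES P30 (adjusted p = 0.442) or replicate 1 of the group without MM401 (0.548). Sox1 was 0.30 ± 0.12 log2 units higher without MM401 and not called (adjusted p = 0.0739), though it was called without replicate 2 of the group without MM401 (0.0469). Sox11 differed by -0.19 ± 0.12 (adjusted p = 0.281). The feeder sum was 1979 to 1986 CPM with MM401 and 1802 to 1876 CPM without it.

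Between genes, levels were compared per kb of exon (CPM per kb). In EpiSC Nes was at 56.5, Tubb3 at 25.2, Sox11 at 21.9, Sox4 at 20.7, Sox1 at 19.7, Ncam1 at 10.4, Map2 at 1.15 and Pax6 at 0.093 CPM per kb. The mean level moved 23.0-fold between the highest and lowest group for Sox11 and 21.8-fold for Sox1, but 9.95-fold for Nes, 6.38-fold for Pax6, 4.39-fold for Sox4, 4.31-fold for Tubb3, 3.97-fold for Ncam1 and 2.47-fold for Map2. Exon lengths came from GENCODE M21 gene models. Reads of Sox4, Ncam1 and Map2 cannot be told apart from those of a gene annotated on the opposite strand over part of their exons. The reason is that no source used here gives the strand of the counting. That part was 2616 of 4795 exon bases for Sox4, 417 of 8664 for Ncam1 and 124 of 16449 for Map2. A miRNA gene on the same strand overlapped 86 of the 4832 exon bases of Sox1.

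**Figure D3:**
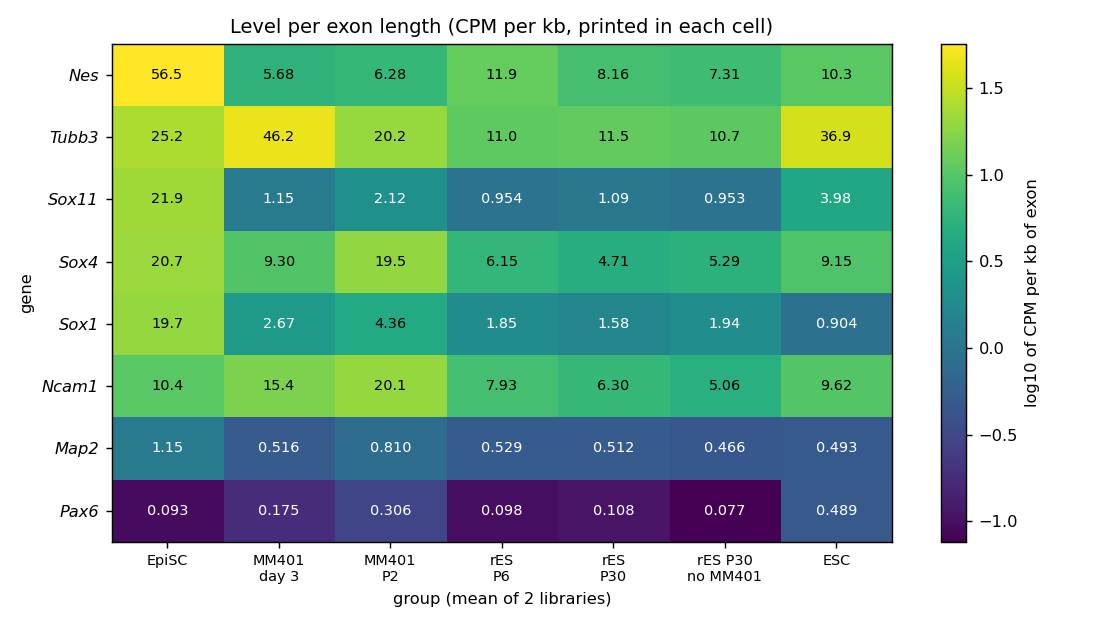
Mean level of each member (rows) per kb of exon in the 7 groups (columns, 2 libraries each), with CPM per kb printed in each cell and its log10 as the colour. Nes is the highest member in EpiSC at 56.5 and Pax6 the lowest at 0.093.

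Across the 14 libraries the members did not share a single pattern. Log2 CPM of Sox1 and Map2 had a Pearson r of 0.924, Sox11 and Nes 0.860, and Sox4 and Map2 0.852, whereas Nes and Ncam1 had -0.098 and Sox1 and Pax6 -0.324. The 14 points fall in 7 pairs of replicates and share their scaling, so these values are descriptions. By the same measure among 11340 genes of at least 10 CPM in some group, the genes most like Sox1 were Tdrkh (0.987), Casp6 (0.981) and Zdhhc2 (0.980). Those most like Sox11 were Prom1 (0.994), Tbc1d16 (0.994) and Lphn2 (0.989), and those most like Nes were Lphn1 (0.977), Bcl6b (0.977) and Shisa6 (0.976). Sox4 was nearest to Bcl2l2 (0.994), Tnfaip1 (0.989) and Tmem167b (0.987), and Ncam1 to Map1a (0.991), Arpc2 (0.982) and Col5a3 (0.982). Tubb3 was nearest to Psat1 (0.984), Haus4 (0.979) and Rrp15 (0.979), and Map2 to Nf1 (0.972), Hspa4l (0.972) and Csdc2 (0.972). Pax6, among 11341 genes, was nearest to Ddit3 (0.965), Lamb1 (0.964) and Slc18b1 (0.962).

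Other neural genes also moved in both directions. Of 5 relatives of the SoxB and SoxC genes, 4 were tested, and in ESC, MM401 day 3, MM401 P2 and all rES groups 2 were higher and 2 lower than in EpiSC. In these comparisons 37.0% to 42.1% of all tested genes were called higher and 33.8% to 38.3% lower. Sox2, a SoxB1 factor of both pluripotent and neural cells, rose from 267.4 ± 8.7 CPM (SD, n = 2) in EpiSC to 864.5 ± 2.5 at day 3 (1.69 ± 0.04), and Sox21 from 1.39 to 47.4 CPM (5.08 ± 0.12). Sox3, the third SoxB1 gene, fell from 19.7 to 1.40 CPM (-3.81 ± 0.15), and Sox12, a SoxC gene, by 0.47 on the log2 scale. So within SoxB1, Sox1 and Sox3 fell at day 3 while Sox2 rose.

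Of 10 neural adhesion molecules, the 9 tested all fell at day 3 (37.9% of all tested genes fell, median -2.84, all genes 0.00). The same 9 were lower in rES P30 (38.3% of tested genes, median -3.01, all genes -0.02). In ESC 8 of 9 were lower (37.5%) and L1cam was not called. Cdh2, the neural cadherin, went from 91.2 CPM in EpiSC to 12.7 at day 3 and 9.33 in rES P30, Nfasc from 94.8 to 5.68 and 20.6, and Nrcam from 29.3 to 2.45 and 3.67. Ncam1 rose at day 3. From day 3 to P2, 8 of the 9 rose and none fell, against 37.5% of tested genes called higher, and L1cam was not called. All 20 feeder markers rose in that step too (median 1.53), and their part in the adhesion genes was not tested.

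The intermediate filament list held 8 other filaments. At day 3, 7 fell and 1 rose (37.9% and 38.7% of all tested genes), with a median of -1.07. In rES P30 also 7 were lower and 1 higher (38.3% and 38.0%), with a median of -2.07. Nefl, the light neurofilament, fell by 2.26 on the log2 scale at day 3, and Nefh, the heavy one, rose (2.23 ± 0.10). In ESC 2 of the 8, Prph and Gfap, were lower than in EpiSC, and 4 were higher (37.5% and 37.0% of all tested genes). Vim, which feeder fibroblasts also express at high levels, was 1101 CPM in EpiSC, 1122 at P2 and 416 in rES P30. The feeder sum was highest at P2 and lowest in the passage 30 groups, and its part in the Vim level was not tested.

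Among 12 regulators of neural induction, 7 fell and 4 rose at day 3, against 37.9% and 38.7% of all tested genes, and 9 were lower and 2 higher in rES P30, against 38.3% and 38.0%. Prom1, a membrane protein of neural and other progenitors, went from 66.6 CPM in EpiSC to 2.05 at day 3, 2.06 in rES P30 and 8.69 in ESC. Msi1, a neural progenitor RNA-binding protein, went from 52.1 CPM to 22.3 at day 3 and 26.2 in rES P30, and was 7.60 in ESC.

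Of 22 transcription factors of neural progenitors, 18 were tested, and 8 rose and 3 fell at day 3, where 38.7% and 37.9% of all tested genes did. In rES P30, 5 were higher and 6 lower, against 38.0% and 38.3%. En2 rose at day 3 (2.03 ± 0.12) and Sox9 fell by 2.72 on the log2 scale. Most were near the limit of detection, and the proneural Neurog2 and the Notch target Hes5, neither of which passed the filter, had group means of at most 0.0943 and 0.164 CPM. Both genes were chosen after their values were seen.

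Of 18 neuronal differentiation genes tested, 12 fell and 4 rose at day 3 (median -0.91), against 37.9% and 38.7% of all tested genes. In rES P30, 10 were lower and 4 higher (median -0.76), against 38.3% and 38.0%. Stmn2, a tubulin-binding neuronal protein, went from 474 CPM in EpiSC to 325 at day 3 and 217 in rES P30, while Stmn3 rose by 1.93 ± 0.13 at day 3. Gap43, a growth cone protein, fell by 2.39 on the log2 scale.

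Of 11 tubulins tested, 6 rose and 4 fell at day 3 (38.7% and 37.9% of all tested genes), and 1 was higher and 7 lower in rES P30 (38.0% and 38.3%). Tubb4a, a neural isotype, went from 83.6 CPM in EpiSC to 1.57 at day 3. Of 11 microtubule-associated proteins, 6 rose and 5 fell at day 3 (38.7% and 37.9% of all tested genes). In rES P30, 5 were higher and 6 lower (38.0% and 38.3%). Mapt, the tau gene, went from 8.99 to 212 CPM at day 3, whereas Crmp1, a collapsin response mediator, went from 147 to 5.92 CPM. In ESC Mapt was 89.0 CPM and Crmp1 30.6 CPM.

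**Figure D4:**
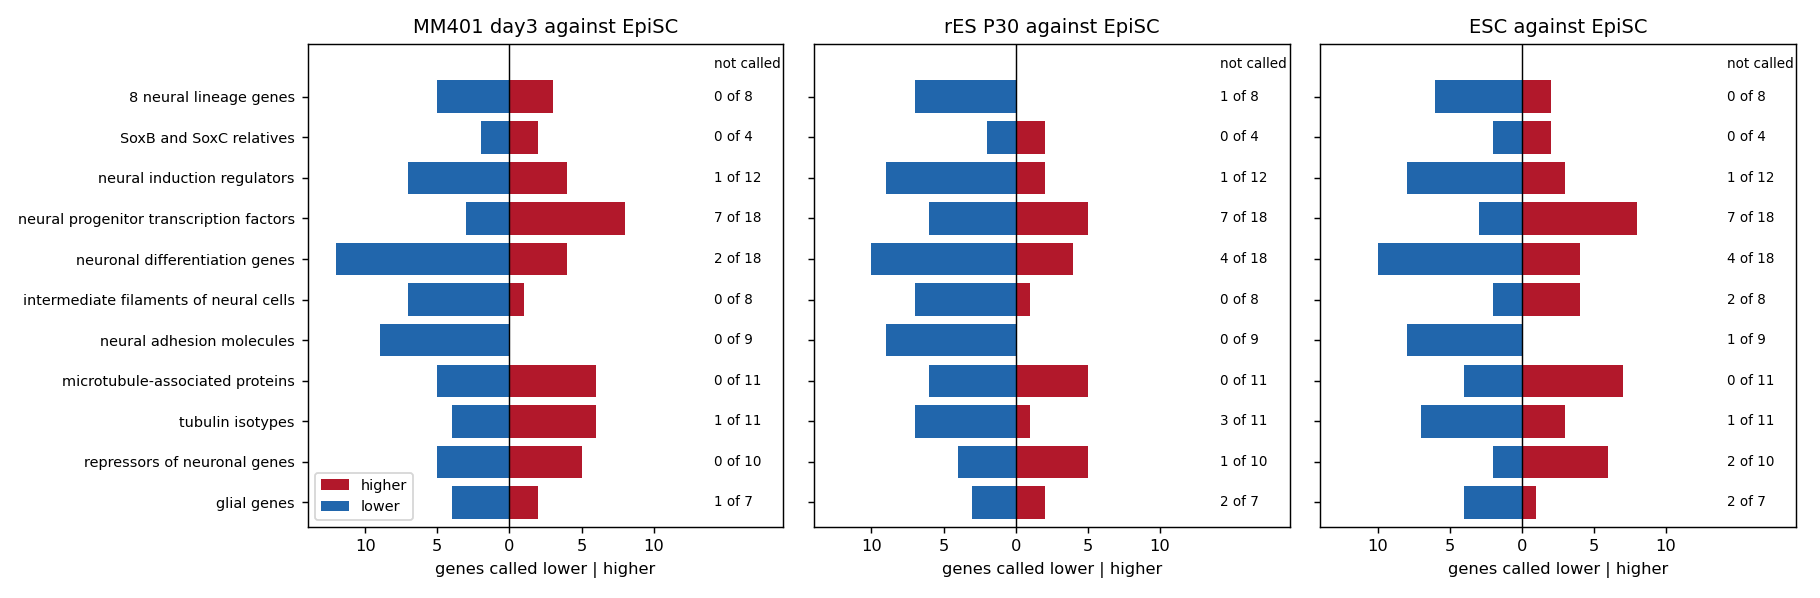
Number of tested genes of each list called lower (left of 0) or higher (right of 0) than EpiSC in MM401 day 3, rES P30 and ESC, with the number not called at the right. The adhesion list has no higher gene in these 3 comparisons, and the tubulin and microtubule-associated lists have both directions in each.

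**Figure D5:**
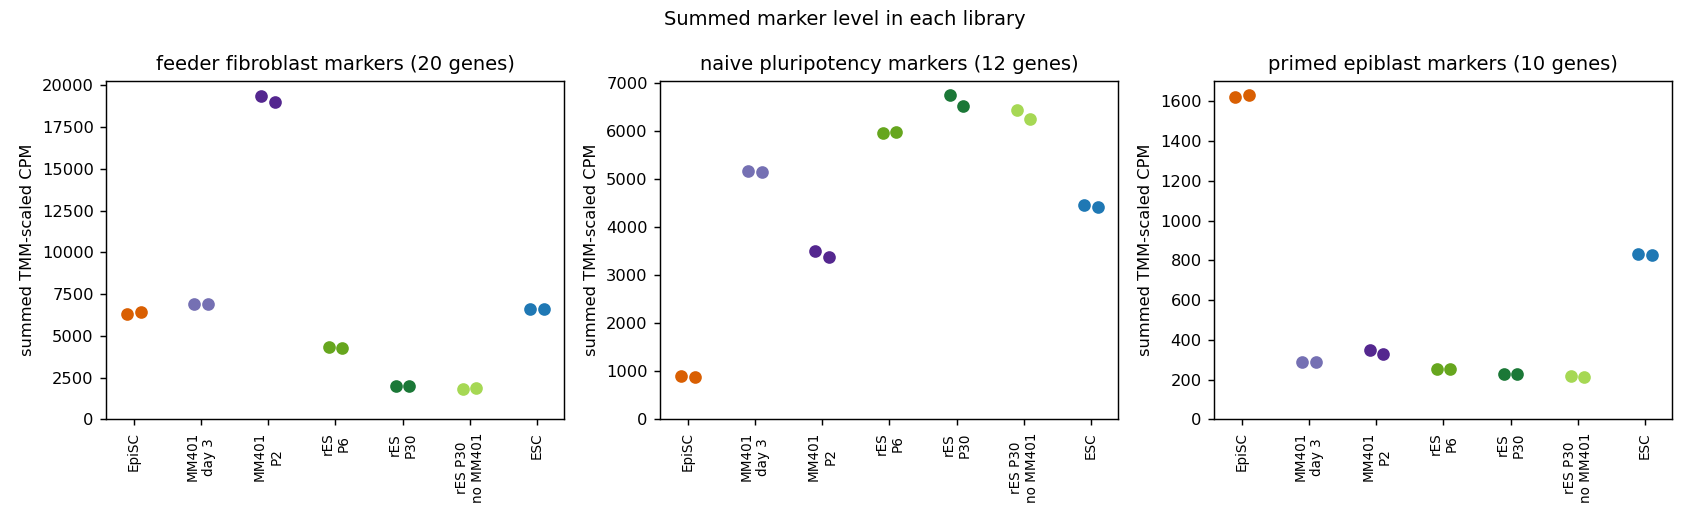
Summed TMM-scaled CPM (y axis from 0) of the feeder, naive and primed marker lists in each of the 14 libraries, 2 points per group (x axis). The feeder sum is 18985 to 19369 at MM401 P2, above every other group, and the naive sum is lowest in EpiSC at 876 to 906.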

How the data were processed

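The deposited values are the authors' raw counts of reads per gene symbol, and nothing else was used. Per the submitters' processing notes the tools were Subread, TopHat2 and DESeq on build mm9, roles and versions unstated. Per the labels' protocols, RNA was purified on RNeasy columns with DNase and sequenced single-end from TruSeq libraries. How strand and reads with several matches were treated is unstated. The table has 2 more columns, left out because they fit no label of a sample, and 27 symbols had become dates (at most 0.254% of a library's counts).

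Genes passing filterByExpr (16247) were TMM-scaled and tested with edgeR 4.0.16 (robust quasi-likelihood F test, R 4.3.3), with 1 mean per group over all 14 libraries and Benjamini-Hochberg adjustment over all tested genes within a comparison (two-sided, adjusted p under 0.05). Sharing the spread over groups matters because each has 2 libraries. The groups were unequal in it, which a shared spread does not show. Chi-square per degree of freedom between the 2 libraries is near 1 for counting noise alone. It was 1.28 in ESC, 1.36 in rES P6, 1.56 in EpiSC and 3.34 in rES P30 without MM401. Values were 7.8 at MM401 day 3, 9.2 at P2 and 17.6 in rES P30. The measure grows with depth, and the day 3 and P2 libraries were the deepest. The standard error is the absolute log2 fold change over the square root of F. The code was tested on simulated data. Alternatives were RLE and total-count scaling, no filter, thinning to the shallowest library (1 random draw), only the 4 libraries compared, DESeq2 1.42.0, a replicate block, a 2-fold threshold, and leaving out libraries. Named genes are the members, up to 4 called genes of each list by smallest adjusted p in a comparison, and the 3 genes most like each member by Pearson r of log2 CPM (prior count 2). Fgf5, L1cam, Gfap, Neurog2 and Hes5 were named after their values were seen. The members and lists were chosen with earlier results of these data known.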

Additional observations from a re-analysis of the deposited data

How the results depend on the processing

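Of 1392 fold changes of members recomputed under the alternatives, 1365 kept their direction and their side of the threshold, 10 lost and 5 gained a call, and 12 changed sign, none of them called on either side. With total-count scaling Pax6 in rES P6 against EpiSC was -0.060. The other sign changes came from leaving out 1 library at a time, over which Pax6 ran from -0.064 (without rES P6 replicate 1) to 0.20 in rES P6 against EpiSC and from -0.037 to 0.32 in rES P30 against P6. Map2 ran from -0.14 to 0.048 in rES P30 against P6, from -0.040 to 0.14 in rES P30 against ESC, from -0.16 to 0.0051 in rES P30 without MM401 against ESC, and from -0.012 to 0.16 at MM401 day 3 against ESC. Sox4 ran from -0.0083 to 0.063 at MM401 day 3 against ESC and from -0.20 (without P2 replicate 1) to 0.018 (without P2 replicate 2) at MM401 P2 against EpiSC. The cause was not tested.

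Calls that changed were that of Sox4 at MM401 P2 against EpiSC, gained with RLE factors (adjusted p = 0.0254), total counts (0.000411), the 4-library fit (0.0301) and without P2 replicate 1 (0.00264), that of Nes at P2 against day 3, lost in the 4-library fit (0.0873) and with thinned counts (0.174), and that of Ncam1 in ESC against EpiSC, lost with no filter (0.0914) and without single libraries (up to 0.247). For rES P30 without against with MM401, 1 member was called, 1 of them lower, with total counts, and likewise 1 and 1 in the 4-library fit. The call lost in both was that of Nes (adjusted p = 0.0602 and 0.126). It was also lost without replicate 1 of the group with MM401 (log2 difference -0.091) or of the group without it (-0.069). Sox1 gained a call without replicate 2 of the group without MM401 (0.41). Leaving out 1 library at a time gave 1 to 3 called members there (0 to 1 higher, 1 to 2 lower), 7 to 8 in ESC against EpiSC (5 to 6 lower) and 7 to 8 at MM401 P2 against EpiSC (5 to 6 lower). In the other comparisons it moved no count.

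Requiring also a 2-fold change gave 1 higher member in ESC against EpiSC, 5 called and 0 higher at MM401 day 3 against EpiSC, 4 called, 1 higher and 3 lower at P2 against EpiSC, 2 called and 1 higher at P2 against day 3, 5 called and 0 higher in rES P6 against P2, and 0 called and 0 lower both in rES P30 against P6 and without against with MM401. Against ESC it gave 3 called and 1 higher at day 3, 3 called and 0 lower at P2, 4 called, 1 higher and 3 lower in rES P6, 3 called, 0 higher and 3 lower in rES P30, and 4 called and 3 lower in rES P30 without MM401. The share of all tested genes that pass with a 2-fold change is not given here. These counts thus show how calls depend on the threshold and say nothing particular about these genes.

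Replicate numbers did not pair the samples, as deviations of same-numbered libraries from their group means had a correlation between -0.031 and 0.040 over 21 pairs of groups. The replicate block changed none of 120 member calls. Total-count scaling moved the median of all genes against EpiSC by up to 0.17 log2 units downward, to -0.17 at MM401 day 3 from 0.00. Depth limits Pax6 most, at 25 and 28 counts in EpiSC.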

Other observations

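Repressors of neuronal genes and glial genes were described from lists of 10 and 8 genes. Rest, the zinc finger repressor of neuronal genes, was 198.7 CPM in EpiSC, 196.8 in ESC and 203.4 in rES P30, and neither ESC nor rES P30 was called different from EpiSC. It was lower in rES P6, at 149.5 CPM (-0.41 ± 0.09), and it rose to 244.8 CPM at MM401 day 3 (0.30 ± 0.08). Rcor2, a corepressor that partners Rest, was 152.8 CPM in EpiSC, 402.4 at day 3, 157.3 at P2, 394.9 in rES P30 and 401.6 in ESC, so that P2 stood with EpiSC (0.04 ± 0.04, not called) and the other groups well above both. Of the 10 repressors, 5 rose and 5 fell at day 3, against 38.7% and 37.9% of all tested genes. At P2, 1 was higher and 6 lower than in EpiSC, against 42.1% and 33.8%. The feeder sum was also highest at P2, and its part in these values was not tested. Rest was named here after its values were seen.

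Of 7 glial genes tested, 2 rose and 4 fell at day 3, against 38.7% and 37.9% of all tested genes. Sox10, a transcription factor of neural crest and oligodendrocytes, fell by 6.45 on the log2 scale, and Aldh1l1, a folate enzyme used as an astrocyte marker, rose (2.23 ± 0.08).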
